A study of Rattus norvegicus with 6 samples.

Results

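The heat shock, DNAJ and chaperonin genes were followed in the tissue that grew into cellulose implants under the skin of rats, at day 3 and at day 1 of healing. They were every gene whose symbol in the platform annotation begins with Hspa, Hspb, Hspd, Hspe, Hsph, Hsp90, Dnaja, Dnajb or Dnajc, or with Cct and a digit. The rule uses gene names and no measured value, and the array carried 71 probes for 69 such genes among 13336 genes with a symbol. Uncoated cellulose was implanted in Sprague-Dawley rats aged 10 weeks, and total RNA of the granulation tissue, the young connective tissue of a wound, was hybridised to 1 Illumina rat bead array per rat. The day 3 group held rats 4, 6 and 7, whose implants were removed after 72 hours. The day 1 group held rats 1, 2 and 3, whose implants were removed after 24 hours. The labels name no other treatment, and no tissue without an implant was among the samples, so every difference is between these 2 times. The RNA came from all cells in the implant, so fewer cells of a type and less RNA per cell cannot be told apart.

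Chaperones bind unfolded or partly folded proteins and help them reach or keep their working shape. HSP70 proteins hold and release short unfolded stretches in a cycle driven by ATP, DNAJ proteins bring clients to HSP70 and start that cycle, and exchange factors such as the HSP110 proteins reset it. HSP90 acts later, on kinases, receptors and other nearly folded clients. The ring-shaped CCT complex folds actin and tubulin in the cytosol, and Hspd1 with its lid Hspe1 folds proteins inside mitochondria. Small heat shock proteins hold unfolded clients without using ATP. Many of these genes are induced by heat or damage through heat shock factors, and those of the endoplasmic reticulum (ER) through the unfolded protein response.

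All values are log2 intensities after background correction, given in the order rats 4, 6, 7 for day 3 and rats 1, 2, 3 for day 1. On this scale the background limit lay at 6.42 and the highest value of any probe at 15.47, and the number of arrays limits the precision. Over the 12165 probes above the limit on at least 3 arrays, Pearson's r was 0.988 to 0.992 between pairs of day 3 arrays. On day 1 it was 0.991 between rats 1 and 2, but 0.957 and 0.964 between each of them and rat 3. The 6 tested adipocyte markers were all highest in rat 3 among the day 1 arrays, by a median of 2.98 over the mean of rats 1 and 2. Of the marker lists, 9 of 10 tested fibroblast, 6 of 7 proliferation and 3 of 5 endothelial markers rose at day 3, while 8 of 9 neutrophil and 7 of 7 mast cell markers fell. Of 9 macrophage markers 4 rose and 2 fell. Markers of fibroblasts, endothelium and macrophages were thus present, as the label granulation tissue implies. Some markers of neutrophils, mast cells and adipocytes were also above the limit. Those of skeletal muscle had a summed linear intensity of 11207, 12781 and 11790 in rats 6, 2 and 3. In rats 4, 7 and 1 it was 733, 753 and 850, and the muscle markers Ckm, Mb and Pvalb were under the background limit there. Each summed intensity, here and below, includes the background level and offset of its probes, so a ratio of sums is not a fold change. The part of any of these cells in the results below was not tested.

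Of the 69 genes, 57 had a probe above the limit on at least 3 arrays and entered the test. At an adjusted p of 0.05 (limma, Benjamini-Hochberg over 12165 probes), 5 rose at day 3, 8 fell and 44 did not pass. The called share was 22.8%, against 24.3% of all 8672 genes tested, of which 13.5% rose and 10.7% fell, and 22.4% of all tested probes. The median difference, day 3 minus day 1, was -0.0024 over the members and -0.0087 over all tested genes. For 19 members (33.3%) the arrays of the days did not overlap, against 41.7% of all tested genes. These shares are close to or below those of all genes, so they are no result about the members as a group. Among the members, 4 passed in all 6 refits that left out 1 rat: Hspa4l and Dnaja1, which fell, and Dnajc10 and Dnajc9, which rose. When rat 4 was left out, 4 members rose and 6 fell. Leaving out rat 6 gave 2 that rose and 3 that fell, leaving out rat 7 or rat 2 gave 2 in each direction, and leaving out rat 1 gave 4 in each. Leaving out rat 3 raised the numbers to 8 that rose and 9 that fell. Over all 8672 tested genes that refit raised them from 1175 and 931 to 1523 and 1441. Of all 12165 probes, 2729 passed with every rat, 3800 without rat 3 and 1316 to 2065 without 1 of the other rats. The plot of all differences shows called genes scattered over several role groups.

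**Figure D1:**
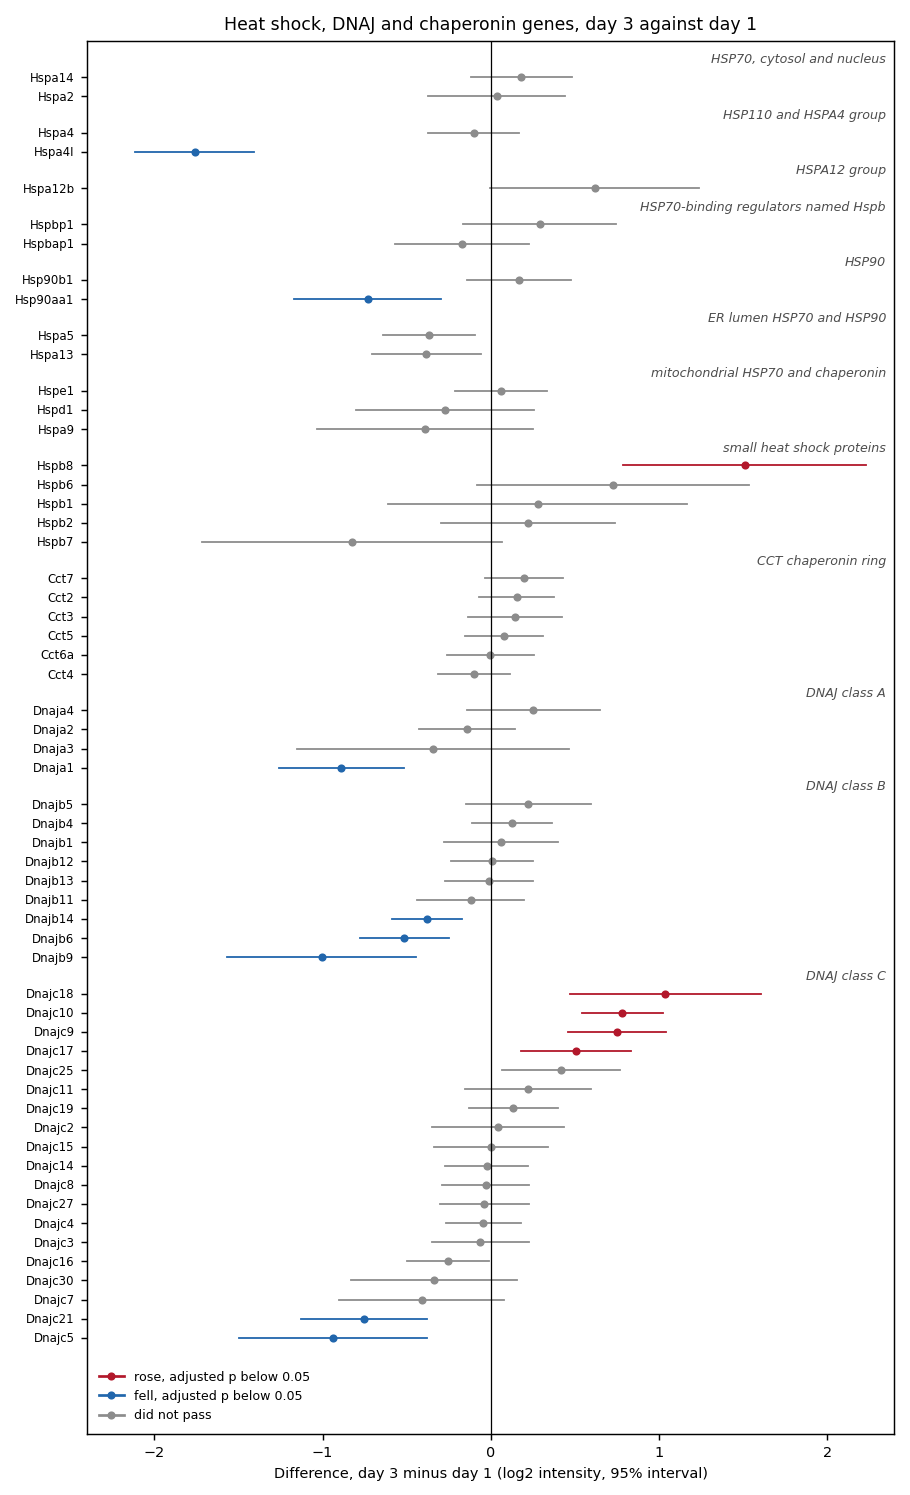
Difference between day 3 and day 1 in log2 intensity for the 57 tested members, by role (horizontal axis; bars are 95% intervals, points right of 0 were higher at day 3). Hspb8 at 1.51 lies farthest right and Hspa4l at -1.76 farthest left, and the 6 CCT subunits lie between -0.10 and 0.20.

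Hspa4l, an HSP110 protein that exchanges the nucleotide of HSP70, fell most of all members. Its intensity was 6.84, 6.91 and 6.80 at day 3, against 8.69, 8.83 and 8.31 at day 1. All day 3 arrays lay far under all day 1 arrays, a difference of -1.76 (SE 0.15, adjusted p = 0.00127), or 3.39-fold lower. The day 3 values were just above the background limit, and the difference ran from -2.13 to -1.64 over the processing alternatives. Its relative Hspa4 had 6.78, 6.75 and 6.79 at day 3, against 6.79, 7.07 and 6.76 at day 1, near the limit on both days and overlapping (-0.10, 95% interval -0.37 to 0.17). The probe of Hsph1, the best studied HSP110 protein, was not above background on any array, which does not show that its RNA was absent.

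**Figure D2:**
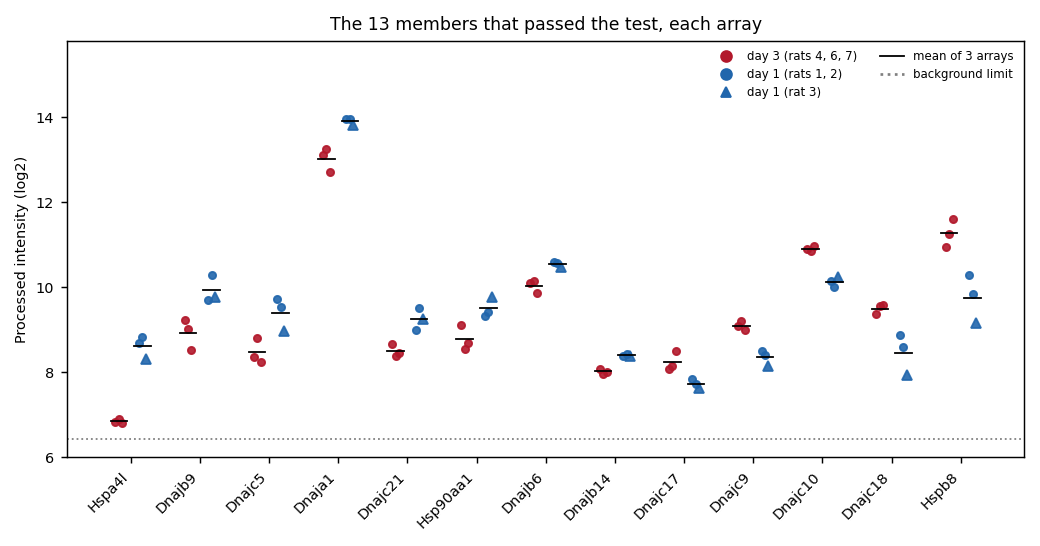
Log2 intensity on each array for the 13 members that passed the test (vertical axis), day 3 left of day 1 for each gene, with bars at the mean of 3 arrays, a triangle for rat 3 and a dotted line at the background limit. The days do not overlap in any of the 13 genes, and Hspa4l at day 3 lies near the limit of 6.42.

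Of the HSP70 genes of cytosol and nucleus, 2 of 3 with a probe were tested and neither passed. Hspa14, an HSP70 relative that works at the ribosome, had 11.26, 11.10 and 11.27 at day 3, against 11.18, 11.09 and 10.81 at day 1 (0.18, 95% interval -0.12 to 0.48). Hspa2, best known from male germ cells, had 6.92, 6.97 and 7.27 at day 3, against 7.11, 6.71 and 7.24 at day 1 (0.036, 95% interval -0.37 to 0.44). In both genes the days overlapped. The heat-inducible Hspa1b was not above background on any array. Hspa8 and Hspa1a were not analysed here.

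Hspa12b, a distant HSP70 relative known from endothelial cells, had 8.47, 8.82 and 8.80 at day 3, against 7.88, 7.69 and 8.67 at day 1. Rat 3 lay among the day 3 arrays and above rats 1 and 2, and the difference of 0.62 (SE 0.26, adjusted p = 0.146) did not pass. Without rat 3 it was 0.91 (adjusted p = 0.00391), but Hspa12b passed in no other refit that left out 1 rat (adjusted p up to 0.361). The 5 tested endothelial markers were also higher in rat 3 than in rats 1 and 2, and their summed linear intensity was 7701, 10056 and 9706 at day 3, against 4887, 4128 and 5874 at day 1. Their part in the level of Hspa12b was not tested. Hspa12a was above the limit on 1 of 3 day 3 arrays and on no day 1 array, and was not tested. Hspbp1, a nucleotide exchange factor of HSP70, had 11.04, 11.21 and 11.65 at day 3, against 11.08, 11.19 and 10.75 at day 1 (0.29, 95% interval -0.17 to 0.75). Hspbap1, which binds a small heat shock protein, had 7.71, 7.94 and 7.89 at day 3, against 8.05, 8.31 and 7.71 at day 1 (-0.17, 95% interval -0.57 to 0.23). In both the days overlapped.

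Hsp90aa1, the stress-inducible HSP90 of the cytosol, fell. It had 9.10, 8.54 and 8.67 at day 3, against 9.33, 9.42 and 9.76 at day 1, and rat 4 came nearest to the day 1 arrays. The difference was -0.73 (SE 0.18, adjusted p = 0.0322), and the call was lost without rat 1, 2, 6 or 7 (adjusted p from 0.0526 to 0.112). Both probes of its constitutive partner Hsp90ab1 were under the limit on all 6 arrays and give no level for that gene.

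The DNAJ proteins were 32 of the 57 tested members, of which 4 rose, 6 fell and 22 did not pass (31.2% called, against 24.3% of all tested genes). In class A, 1 of 4 tested genes fell and 3 did not pass. Dnaja1, a main HSP70 partner of the cytosol, had 13.11, 13.24 and 12.70 at day 3, against 13.95, 13.95 and 13.82 at day 1. The day 1 arrays lay close together above all day 3 arrays, with a difference of -0.89 (SE 0.15, adjusted p = 0.0101), or 1.85-fold lower. Dnaja2, which acts beside it, had 12.37, 12.26 and 12.15 at day 3, against 12.37, 12.58 and 12.26 at day 1 and overlapped between the days (-0.14, 95% interval -0.43 to 0.14). Dnaja4 had 8.46, 8.55 and 8.73 at day 3, against 8.26, 8.08 and 8.64 at day 1. Its difference of 0.25 (SE 0.17, adjusted p = 0.348) did not pass, while without rat 3 it was 0.41 (adjusted p = 0.0437). Dnaja4 passed in no other refit that left out 1 rat (adjusted p up to 0.69).

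The promoter of Dnaja1 is shown, with that of the mitochondrial chaperonin gene Hspd1, because both hold a heat shock element, the sequence that heat shock factors bind. It was searched as 3 alternating triplets, GAA, TTC and GAA or TTC, GAA and TTC, with NN between neighbouring triplets, which covers both strands. The windows run 5′ to 3′ in the direction of the gene, from 250 bases before to 50 bases after its start, and are from RefSeq (GRCr8). They lie at chr5:60638154-60638453 on the plus strand for Dnaja1 and at chr9:64083988-64084287 on the minus strand for Hspd1. Capitals mark the element, of which Hspd1 holds 2 that overlap. That of Dnaja1 lies after the start of the gene, at bases 10 to 22. Those of Hspd1 lie before the start, from base -242 to base -225.
Dnaja1: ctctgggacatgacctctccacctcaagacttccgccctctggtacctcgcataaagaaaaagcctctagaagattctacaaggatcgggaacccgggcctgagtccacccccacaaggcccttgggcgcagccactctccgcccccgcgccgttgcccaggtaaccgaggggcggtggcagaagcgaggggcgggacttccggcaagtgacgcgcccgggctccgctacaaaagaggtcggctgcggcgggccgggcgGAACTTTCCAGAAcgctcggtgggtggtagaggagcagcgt
Hspd1: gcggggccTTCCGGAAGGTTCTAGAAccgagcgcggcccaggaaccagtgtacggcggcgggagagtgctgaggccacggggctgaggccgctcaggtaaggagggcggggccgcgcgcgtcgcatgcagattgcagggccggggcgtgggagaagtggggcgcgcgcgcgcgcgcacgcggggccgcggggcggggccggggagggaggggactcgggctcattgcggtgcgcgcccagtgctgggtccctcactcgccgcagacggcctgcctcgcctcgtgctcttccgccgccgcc
The element was found in 5 of 58 member genes with a window (8.62%), namely Dnaja1, Hspd1, Hspe1, Hsph1 and Cct4, and in 0.798% of all 33469 windows. The windows of Hspd1 and Hspe1 share 211 bases on opposite strands, so that their elements are the same bases. The element of Cct4 also lies after the start, at bases 26 to 38, and those of Hspe1 and Hsph1 lie before it. Of the 5 genes only Dnaja1 passed the test, Hspd1, Hspe1 and Cct4 did not, and the probe of Hsph1 was not above background. A match describes the letters and does not show that a factor binds there.

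In class B, 3 of 9 tested genes fell and 6 did not pass. Dnajb6, which suppresses protein aggregation, had 10.10, 10.13 and 9.86 at day 3, against 10.60, 10.57 and 10.47 at day 1, a difference of -0.51 (SE 0.11, adjusted p = 0.0204). Dnajb14, anchored in the ER membrane, had 8.08, 7.97 and 7.999 at day 3, against 8.37, 8.43 and 8.38 at day 1, a difference of -0.38 (SE 0.088, adjusted p = 0.0251). In both genes the arrays of each day lay close together and the days did not overlap. The call was lost for Dnajb6 without rat 1, 2, 6 or 7 (adjusted p from 0.0517 to 0.0715) and for Dnajb14 without rat 1, 2, 4, 6 or 7 (0.0513 to 0.103). Dnajb9, the other gene that fell, is described with the ER lumen. The heat-inducible Dnajb1 had 11.66, 11.90 and 12.10 at day 3, against 11.91, 11.90 and 11.66 at day 1, and the days overlapped fully (0.062, 95% interval -0.28 to 0.40). Dnajb4, Dnajb5, Dnajb12 and Dnajb13 differed by -0.012 to 0.22 and did not pass.

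In class C, whose members share little outside the J domain, 4 of 19 tested genes rose, 2 fell and 13 did not pass. Dnajc9, a chaperone of histones H3 and H4, had 9.08, 9.21 and 8.999 at day 3, against 8.49, 8.40 and 8.15 at day 1. It rose, with rat 3 lowest, by 0.75 (SE 0.12, adjusted p = 0.00821). The 7 tested proliferation markers, of which 6 rose, had a summed intensity of 21760, 22521 and 26010 at day 3, against 16124, 14800 and 11745 at day 1, also with rat 3 lowest. Pcna, the 1 that did not pass, made up 39.6% to 45.7% of the sum at day 3 and 74.9% to 79.7% at day 1, and the sum without it was 11825, 13599 and 15563 at day 3, against 4040, 3001 and 2379 at day 1. Their part in the rise of Dnajc9 was not tested. Dnajc18, a protein of the ER membrane, had 9.36, 9.55 and 9.57 at day 3, against 8.87, 8.58 and 7.92 at day 1, a difference of 1.04 (SE 0.24, adjusted p = 0.0245). Dnajc17, a nuclear protein with an RNA recognition motif, had 8.07, 8.15 and 8.49 at day 3, against 7.84, 7.72 and 7.64 at day 1, a difference of 0.51 (SE 0.14, adjusted p = 0.0404). Every day 3 array lay above every day 1 array in these genes, and Dnajc18 was spread most widely among the day 1 arrays. The call was lost for Dnajc18 without rat 2, 4, 6 or 7 (adjusted p from 0.0532 to 0.0873) and for Dnajc17 without rat 1, 2, 3, 6 or 7 (0.0524 to 0.116).

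Dnajc21, which takes part in making the large ribosomal subunit, fell. It had 8.66, 8.39 and 8.44 at day 3, against 8.98, 9.501 and 9.26 at day 1, a difference of -0.75 (SE 0.16, adjusted p = 0.0181). Dnajc5, the cysteine string protein of secretory vesicles, also fell. It had 8.35, 8.79 and 8.24 at day 3, against 9.71, 9.53 and 8.96 at day 1, a difference of -0.94 (SE 0.23, adjusted p = 0.0316), and rat 3 came nearest to the day 3 arrays. The call was lost for Dnajc21 without rat 2, 6 or 7 (adjusted p from 0.0554 to 0.0739) and for Dnajc5 without rat 1, 2, 4 or 7 (0.0854 to 0.109). The 9 tested neutrophil markers, of which 8 fell, had a median difference of -2.06 and a summed intensity of 36023, 31612 and 36201 at day 3, against 70865, 54226 and 37379 at day 1, also with rat 3 lowest on day 1. Lcn2, the 1 that did not pass, was higher at day 3 on average and made up 70.7% to 87.1% of the sum at day 3 and 23% to 43.4% at day 1. The sum without it was 7074, 9267 and 4679 at day 3, against 48200.5, 41729 and 21175 at day 1. Their part in the fall of Dnajc5 was not tested. Dnajc2, which sits on the ribosome, had 11.37, 11.62 and 11.499 at day 3, against 11.61, 11.63 and 11.11 at day 1 and overlapped between the days (0.044, 95% interval -0.35 to 0.44). Dnajc25 had 9.41, 9.52 and 9.89 at day 3, against 9.17, 9.30 and 9.09 at day 1, with all day 3 arrays above all day 1 arrays, but its difference of 0.42 (SE 0.15, adjusted p = 0.0904) did not pass. The remaining tested class C genes, not listed here with the ER lumen or the mitochondria, were Dnajc4, Dnajc7, Dnajc8, Dnajc14, Dnajc16 and Dnajc27. They differed by -0.41 to -0.025 and did not pass.

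Of 7 tested members of the ER lumen, 1 rose, 1 fell and 5 did not pass; Dnajc18, which rose, and Dnajb14, which fell, are ER membrane proteins and are counted with their classes alone. The promoters of 3 of them are shown because they hold the ER stress element, through which the unfolded protein response activates ER chaperone genes, searched as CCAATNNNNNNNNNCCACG on both strands. The windows, made as above from RefSeq (GRCr8), lie at chr3:38452766-38453065 on the plus strand for Hspa5, at chr7:23012244-23012543 on the minus strand for Hsp90b1 and at chr15:102432417-102432716 on the plus strand for Dnajc3. Capitals mark the element, of which Hsp90b1 holds 2.
Hspa5: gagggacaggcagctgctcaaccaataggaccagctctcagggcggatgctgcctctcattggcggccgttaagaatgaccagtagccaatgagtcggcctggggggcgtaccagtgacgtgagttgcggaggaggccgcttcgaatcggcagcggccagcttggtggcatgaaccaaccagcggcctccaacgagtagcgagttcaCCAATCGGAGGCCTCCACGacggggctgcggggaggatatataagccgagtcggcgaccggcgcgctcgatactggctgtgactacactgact
Hsp90b1: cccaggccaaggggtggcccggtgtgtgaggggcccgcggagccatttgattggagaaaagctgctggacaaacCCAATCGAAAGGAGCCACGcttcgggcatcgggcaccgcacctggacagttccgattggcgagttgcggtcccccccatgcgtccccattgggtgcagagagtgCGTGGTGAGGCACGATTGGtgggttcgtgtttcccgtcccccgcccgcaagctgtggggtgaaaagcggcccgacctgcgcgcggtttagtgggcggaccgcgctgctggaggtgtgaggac
Dnajc3: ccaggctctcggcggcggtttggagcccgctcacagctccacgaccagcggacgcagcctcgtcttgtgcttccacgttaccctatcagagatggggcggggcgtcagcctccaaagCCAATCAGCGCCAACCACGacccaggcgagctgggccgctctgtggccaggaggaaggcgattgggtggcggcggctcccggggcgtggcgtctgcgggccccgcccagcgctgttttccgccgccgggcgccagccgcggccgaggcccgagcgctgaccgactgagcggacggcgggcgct
The element was found in 3 of 58 member genes with a window (5.17%) and in 0.0657% of all windows. It contains the CCAAT box, which alone was found in 43.1% of the members and 37.5% of all windows.

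None of the 3 genes with this element passed the test. Hspa5 (BiP), the HSP70 of the ER lumen, had 14.17, 14.23 and 14.03 at day 3, against 14.35, 14.64 and 14.55 at day 1. All day 3 arrays lay under all day 1 arrays, but the difference of -0.37 (SE 0.12, adjusted p = 0.0652) did not pass. Hsp90b1, the HSP90 of the ER lumen, had 13.29, 13.38 and 13.34 at day 3, against 12.98, 13.41 and 13.12 at day 1 (0.17, 95% interval -0.14 to 0.48). Dnajc3, a DNAJ partner of BiP, had 12.47, 12.34 and 12.52 at day 3, against 12.45, 12.70 and 12.36 at day 1 (-0.063, 95% interval -0.35 to 0.23). In Hsp90b1 and Dnajc3 the days overlapped, with rat 2 highest on day 1.

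Dnajb9, an ER protein that restrains the stress sensor IRE1 and is itself induced by ER stress, fell. It had 9.24, 9.01 and 8.51 at day 3, against 9.71, 10.30 and 9.77 at day 1, a difference of -1.01 (SE 0.23, adjusted p = 0.0257), or 2.01-fold lower. The call was lost without rat 2, 6 or 7 (adjusted p from 0.0687 to 0.0794). Dnajc10, which reduces disulfide bonds of misfolded ER proteins, rose. It had 10.91, 10.84 and 10.97 at day 3, against 10.14, 10.004 and 10.24 at day 1, a difference of 0.78 (SE 0.10, adjusted p = 0.00403), and the arrays of each day lay close together. Dnajb11, which delivers clients to BiP, had 10.88, 10.87 and 11.10 at day 3, against 11.09, 11.25 and 10.86 at day 1 on the brighter of its probes and overlapped between the days (-0.12, 95% interval -0.44 to 0.20), while its other probe was under the limit on all arrays. Hspa13, a microsomal HSP70, had 9.59, 9.61 and 9.52 at day 3, against 9.87, 10.22 and 9.77 at day 1, with the days apart, but its difference of -0.38 (SE 0.14, adjusted p = 0.0918) did not pass. Without rat 3 it was -0.47 (adjusted p = 0.0316), but Hspa13 passed in no other refit that left out 1 rat (adjusted p up to 0.228).

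**Figure D3:**
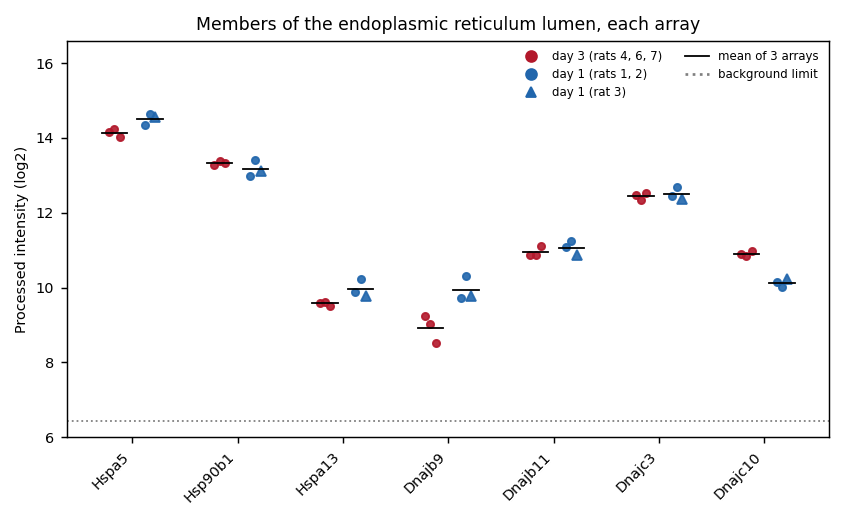
Log2 intensity on each array for the 7 tested members of the ER lumen (vertical axis), day 3 left of day 1, with bars at the mean of 3 arrays, a triangle for rat 3 and a dotted line at the background limit. Dnajb9 lies lower at day 3 by 1.01 and Dnajc10 higher by 0.78, while Hsp90b1, Dnajb11 and Dnajc3 overlap between the days.

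The CCT ring showed small differences. None of its 6 tested subunits passed, with differences from -0.10 to 0.20 and 95% intervals from -0.32 to 0.43. Cct4 had 13.09, 12.98 and 12.95 at day 3, against 13.15, 13.10 and 13.07 at day 1 and overlapped between the days (-0.100, 95% interval -0.32 to 0.12). Cct7 had 12.84, 12.86 and 13.03 at day 3, against 12.67, 12.72 and 12.74 at day 1, with all day 3 arrays above all day 1 arrays (0.20, 95% interval -0.033 to 0.43). Cct2 was also apart between the days, with 12.30, 12.29 and 12.19 at day 3, against 12.02, 12.15 and 12.16 at day 1 (0.15, 95% interval -0.069 to 0.38). Cct3, Cct5 and Cct6a overlapped. The SD within days was 0.058 to 0.13 over the subunits with a median of 0.080, against a median of 0.18 over all tested genes. Tcp1, a further subunit of the same ring whose symbol falls outside the naming rule, rose. It had 12.01, 12.001 and 11.97 at day 3, against 11.62, 11.59 and 11.40 at day 1, a difference of 0.46 (SE 0.098, adjusted p = 0.0202), and the call was lost without rat 2, 4, 6 or 7 (adjusted p from 0.0567 to 0.078). Whether Tcp1 differed from the other subunits was not tested. Pfdn5, part of prefoldin, which delivers actin and tubulin to the ring, had 12.86, 12.90 and 13.02 at day 3, against 12.16, 12.26 and 12.14 at day 1. It rose by 0.74 (SE 0.095, adjusted p = 0.00386), passing in all 6 refits that left out 1 rat. The other tested prefoldins did not pass. Pfdn1 differed by -0.18 (SE 0.23, adjusted p = 0.656) and Pfdn6 by 0.22 (SE 0.11, adjusted p = 0.228).

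**Figure D4:**
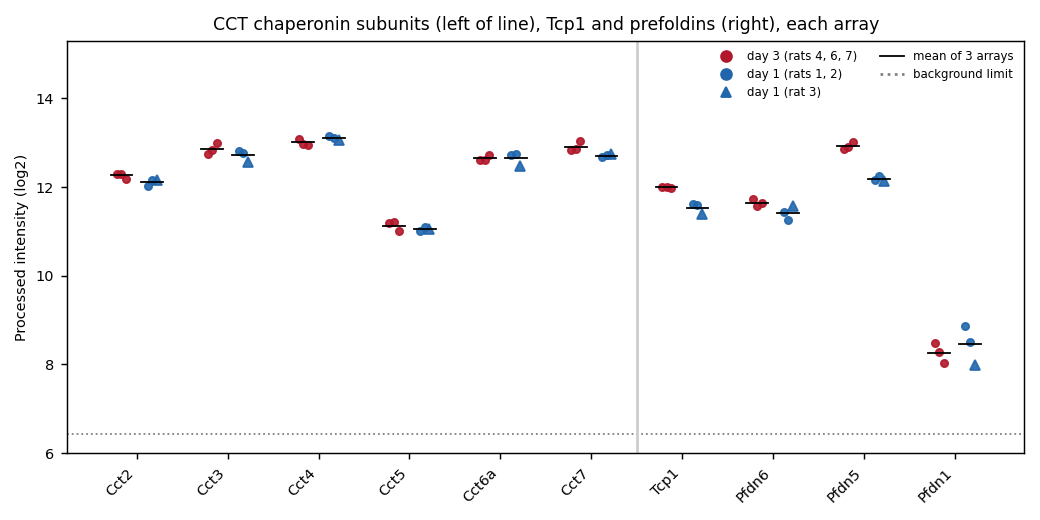
Log2 intensity on each array for 6 CCT subunits (left of the line) and for Tcp1 and the tested prefoldins (right), day 3 left of day 1, with bars at the mean of 3 arrays, a triangle for rat 3 and a dotted line at the background limit. The days lie close together in the CCT subunits, and day 3 lies above day 1 in Tcp1 by 0.46 and in Pfdn5 by 0.74.

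None of the 8 tested mitochondrial members passed, and all 8 were highest in rat 3 among the day 1 arrays, as were 2665 of all 8672 tested genes. Hspd1, the mitochondrial chaperonin whose promoter is shown above, had 13.32, 13.21 and 13.20 at day 3, against 13.31, 13.19 and 14.04 at day 1, and its difference of -0.27 (SE 0.22, adjusted p = 0.461) was -0.0097 without rat 3. Hspa9, the mitochondrial HSP70, had 12.18, 11.98 and 12.32 at day 3, against 12.16, 12.31 and 13.17 at day 1, and its difference of -0.39 (SE 0.27, adjusted p = 0.376) was -0.076 without rat 3. Dnaja3, its DNAJ partner, had 8.06, 8.13 and 8.22 at day 3, against 8.17, 7.95 and 9.31 at day 1, and its difference of -0.34 (SE 0.34, adjusted p = 0.548) was 0.073 without rat 3. Apart from rat 3, the day 1 arrays of these genes lay among or near the day 3 arrays. Rat 3 exceeded the mean of rats 1 and 2 by 1.25 in Dnaja3, 0.94 in Hspa9 and 0.78 in Hspd1, and 3.63%, 5.11% and 6.42% of tested genes had at least as high an excess. Hspe1, the lid of the chaperonin, had 10.83, 10.97 and 11.08 at day 3, against 10.88, 10.78 and 11.03 at day 1 (0.061, 95% interval -0.21 to 0.34). Dnajc19, of the import motor at the inner membrane, had 9.63, 9.55 and 9.56 at day 3, against 9.39, 9.33 and 9.63 at day 1 (0.13, 95% interval -0.13 to 0.40). Dnajc11, of the machinery that joins the mitochondrial membranes, had 9.44, 9.51 and 9.92 at day 3, against 9.44, 9.24 and 9.52 at day 1 (0.22, 95% interval -0.15 to 0.60). In these 3 genes the days overlapped. Dnajc15 and Dnajc30 differed by 0.0013 and -0.34. The adipocyte markers, highest in the same rat, had a summed intensity of 43351, 24859 and 31323 at day 3, against 24576, 39565 and 74792 at day 1. Without Cfd, the brightest of them, the sum was 10823, 7966 and 7673 at day 3, against 6612, 9529 and 32774 at day 1, and their part was not tested.

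**Figure D5:**
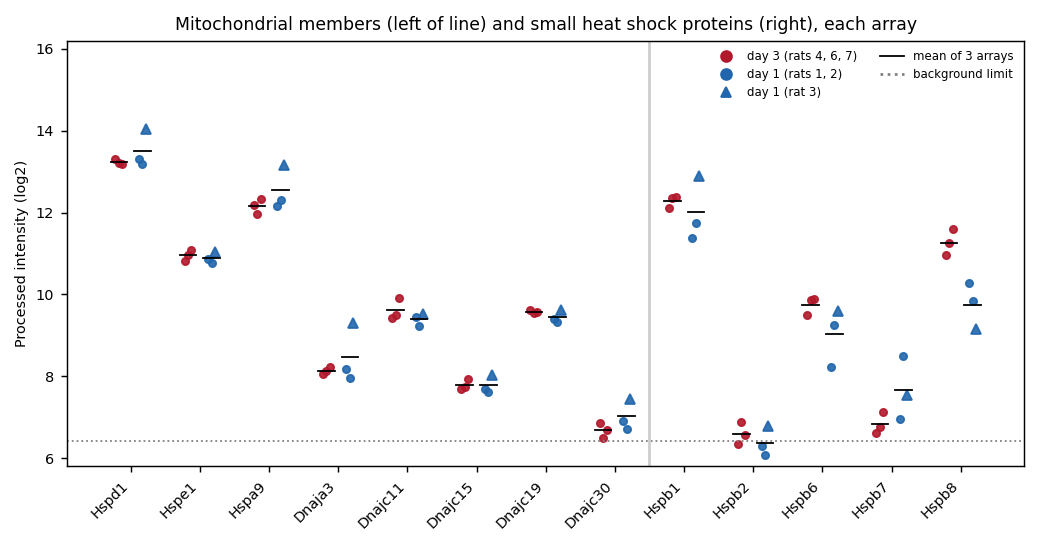
Log2 intensity on each array for the 8 tested mitochondrial members (left of the line) and 5 small heat shock proteins (right), day 3 left of day 1, with bars at the mean of 3 arrays, a triangle for rat 3 and a dotted line at the background limit. Rat 3 is highest on day 1 in all 8 mitochondrial members and lowest in Hspb8.

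Of 5 tested small heat shock proteins, 1 rose and 4 did not pass. Hspb8, which works with Bag3 to clear misfolded proteins, had 10.95, 11.25 and 11.60 at day 3, against 10.28, 9.84 and 9.15 at day 1. All day 3 arrays lay above all day 1 arrays, with rat 3 lowest, a difference of 1.51 (SE 0.30, adjusted p = 0.016), or 2.85-fold higher. The call was lost without rat 2, 6 or 7 (adjusted p from 0.0569 to 0.0598). Bag3 itself had 11.26, 11.25 and 11.53 at day 3, against 11.13, 11.10 and 11.46 at day 1 and overlapped between the days (0.12, 95% interval -0.22 to 0.45). Hspb1, which protects the actin skeleton, had 12.10, 12.36 and 12.39 at day 3, against 11.37, 11.74 and 12.90 at day 1, and rat 3 was the highest of all arrays. Its difference of 0.28 (SE 0.37, adjusted p = 0.673) did not pass, and without rat 3 it was 0.73 (adjusted p = 0.0114). Hspb1 passed in no other refit that left out 1 rat (adjusted p up to 0.959). Hspb6, a small heat shock protein of muscle, had 9.49, 9.87 and 9.89 at day 3, against 8.24, 9.24 and 9.59 at day 1. Its difference of 0.72 (SE 0.34, adjusted p = 0.185) did not pass, while without rat 3 it was 1.01 (adjusted p = 0.0346). Hspb6 passed in no other refit that left out 1 rat (adjusted p up to 0.383). Hspb7 and Hspb2, known from heart and skeletal muscle, differed by -0.83 and 0.22 and did not pass. Hspb7 had 6.62, 6.77 and 7.13 at day 3, against 6.96, 8.49 and 7.55 at day 1. Hspb2, under the limit on some arrays, had 6.35, 6.89 and 6.57 at day 3, against 6.29, 6.07 and 6.78 at day 1. Cryab, a chaperone outside the naming rule, had 7.36, 9.87 and 7.89 at day 3, against 7.66, 10.07 and 10.12 at day 1. Its difference of -0.92 (SE 0.87, adjusted p = 0.53) did not pass. The tested skeletal muscle markers had a summed intensity of 733, 11207 and 753 at day 3, against 850, 12781 and 11790 at day 1. Their part in the levels of these genes was not tested.

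Of 35 tested chaperones and co-chaperones outside the naming rule, 5 rose, 3 fell and 27 did not pass, a called share of 22.9%, against 24.3% of all genes. Beside Tcp1 and Pfdn5, Cdc37, which brings kinases to HSP90, rose. It had 13.51, 13.63 and 13.66 at day 3, against 13.16, 12.96 and 13.07 at day 1, a difference of 0.54 (SE 0.10, adjusted p = 0.0127). Sil1, the exchange factor of BiP, had 10.13, 10.35 and 10.28 at day 3, against 9.72, 9.82 and 9.58 at day 1, a difference of 0.55 (SE 0.11, adjusted p = 0.0156). Hscb, a mitochondrial J protein of iron-sulfur cluster assembly, rose by 0.42 (SE 0.11, adjusted p = 0.0418). In Cdc37 and Sil1 all day 3 arrays lay above all day 1 arrays. Chordc1, which binds HSP90, fell, with 9.91, 9.57 and 9.22 at day 3, against 10.44, 10.55 and 10.35 at day 1 and a difference of -0.88 (SE 0.18, adjusted p = 0.017). St13, which links HSP70 to HSP90, fell with a difference of -0.37 (SE 0.091, adjusted p = 0.0303), and Lonp1, a mitochondrial protease, with -0.36 (SE 0.10, adjusted p = 0.0481). Calls were lost for Cdc37 and Chordc1 without rat 2 or 6 (adjusted p from 0.0505 to 0.0579 and from 0.0643 to 0.0677), for Sil1 without rat 6 or 7 (0.0561 to 0.0679) and for St13 without rat 1, 2, 4, 6 or 7 (0.0556 to 0.106). Those of Hscb and Lonp1 were lost without any 1 of the 6 rats (0.0527 to 0.141 and 0.0552 to 0.159). Leaving out rat 4 or rat 1 gave 4 that rose and 1 that fell, rat 7 gave 3 and 1, rat 2 gave 2 and 0, rat 6 gave 1 and 0, and rat 3 gave 5 in each direction.

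The members without a test were Cct8l2, Dnajb8, Dnajc28, Dnajc5b, Dnajc5g, Dnajc6, Hsp90ab1, Hspa12a, Hspa1b, Hspb3, Hspb9 and Hsph1. Apart from 1 day 3 array of Hspa12a, none of their probes was above the limit on any array, and such a probe gives only a bound. Of the 57 tested members, 53 were above the limit on all 6 arrays and 4 on some, namely Dnajb12, Dnajb13, Dnajc16 and Hspb2.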

How the data were processed

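RNA of 6 implants from 6 rats was measured on Illumina rat bead arrays with 22517 probes, from 100 ng of total RNA per the labels' protocols. The authors deposited linear intensities, and the submitters' processing notes name limma; the deposited intensity columns share 1 set of sorted values, so they had been quantile-normalised, and depth does not apply. Another deposited table of non-normalised signals has 12 columns that match no sample label and was not used. The intensities were background corrected here (normexp, offset 50), quantile-normalised again and put on the log2 scale with limma 3.58.1 in R 4.3.3. A normal distribution on the log2 scale was given the mode of the values and the SD of the values below the mode. Its 95th percentile, an intensity of 101, was taken as the background limit. A probe was tested if above it on at least 3 of 6 arrays. Day 3 was compared with day 1 by limma's moderated test, unpaired, with Benjamini-Hochberg adjustment over 12165 probes, and the script was tested on simulated data. A gene with several tested probes was represented by the brightest, and of the probes 13787 had 1 symbol and 8730 none. Members and lists were chosen with earlier results of these data known. Values on every array are given for members past the threshold and for the 2 brightest others of each role group. Those of Hspa13, Cct2, Dnaja3, Dnajc25, Hspe1, Hspb7, Hspb2, Cryab and Bag3, and the marker lists set beside a result, were chosen after their values were seen. Alternatives changed the background correction, offset, normalisation, filter and variance model, or left out 1 rat. Promoter windows from RefSeq (GRCr8) were matched by Entrez gene identifier for 58 of 69 genes.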

Additional observations from a re-analysis of the deposited data

How the results depend on the processing

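None of the 13 called members and 8 called other chaperones reversed its direction under any alternative. Small differences that did not pass could change sign: without rat 3 Dnaja3 differed by 0.073, Dnajb1 by -0.018 and Dnajc2 by -0.13. Of the 13 called members, 11 passed in all 9 alternatives that kept every rat; with trend and robust variance Dnajb14 had an adjusted p of 0.0696 and Dnajc17 of 0.0508. Leaving out 1 rat moved the counts most: members that rose numbered 2 to 8 and members that fell 2 to 9, all probes past the test 1316 to 3800, and the other chaperones 1 to 5 that rose and 0 to 5 that fell. Of these refits, the one without rat 2 gave the lowest count of all probes and the one without rat 3 the highest. Array weights, which kept every rat, gave 4055 probes, with 7 members that rose and 10 that fell. Among the other chaperones, 1 fell with a normexp offset of 16 and 1 with trend and robust variance, against 3 as reported, and with array weights 8 rose and 6 fell. The median difference over the members lay between -0.043 and 0.023 in all alternatives. The median level of the members on an array, another measure, had an SD of 0.063 between arrays of the same day. No paired analysis was possible because each array came from a different rat and the groups share no rat number. With 3 rats a day, genes not called may still differ, and for probes near background the size of a difference depends on the background correction.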
